A study of Homo sapiens with 4 samples.

Results

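The 10 genes described here encode inflammatory cytokines and chemokines: IL6 and LIF of the IL-6 family, IL1A, IL1B and IL18 of the IL-1 family, the CXC chemokines CXCL1, CXCL2 and CXCL3, and the CC chemokines CCL2 and CCL20. They were taken as all non-control probes whose gene name on the array was that of a member, which gave 13 probes in 58 spots for 10 of the 29245 gene names on the array. The cells were A2780s, an established human epithelial ovarian cancer (EOC) line, and each of 4 two-color Agilent arrays compared Cy5-labelled RNA of 1 knockout clone with Cy3-labelled RNA of corresponding mock-transfected Ctrl cells, with no dye swap by the labels. The methods speak of reverse-color Ctrl RNA without naming the dye of a group, so directions here rest on the labels, and dyes opposite to the labels on an array would turn the sign of its ratios. Of these, 2 arrays held a GALNT3 KO clone each, made with CRISPR/Cas9, and 2 held a clone labelled GALNT3/T6 KO, which by the methods was a GALNT3 KO clone transduced with a lentiviral shRNA against GALNT6. These last are called the T6-labelled arrays. A clone is 1 line, the transduction goes together with the second group, and each value is a log2 ratio of KO over Ctrl. In RNA of a whole culture, fewer cells that express a gene and less RNA per cell cannot be told apart.

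IL-6 and LIF bind receptors that share gp130 and signal through JAK kinases and STAT3. IL-1 alpha, IL-1 beta and IL-18 signal through MyD88 to NF-kappa B, and IL-1 beta and IL-18 are made as precursors that caspase-1 cuts. CXCL1, CXCL2 and CXCL3 attract neutrophils through CXCR2, CCL2 attracts monocytes through CCR2, and CCL20 attracts CCR6-bearing lymphocytes and dendritic cells. Several of these genes are classical targets of NF-kappa B, with C/EBP beta acting beside it at IL6, and their products are found in ovarian cancer ascites.

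The promoters of 5 of the genes are shown because they hold a kappa B match, and because those of CXCL1, CXCL2 and CXCL3, which lie in 1 cluster on chromosome 4, are much alike in sequence. Each line holds the 170 bases before the transcription start, 5′ to 3′ on the strand of the gene, from RefSeq on GRCh38.p14. Capitals mark matches to the kappa B consensus and, in IL6 from -155 to -147, to the C/EBP pattern TTGCNNAAT.
CXCL1 (chr4:73869223-73869392, + strand): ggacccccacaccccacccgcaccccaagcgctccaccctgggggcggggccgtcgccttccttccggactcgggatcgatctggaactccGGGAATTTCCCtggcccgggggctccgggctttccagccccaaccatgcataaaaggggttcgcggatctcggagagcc
CXCL2 (chr4:74099196-74099365, - strand): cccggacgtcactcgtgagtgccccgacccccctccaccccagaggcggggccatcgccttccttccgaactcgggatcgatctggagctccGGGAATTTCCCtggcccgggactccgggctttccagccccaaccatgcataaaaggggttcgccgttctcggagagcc
CXCL3 (chr4:74038690-74038859, - strand): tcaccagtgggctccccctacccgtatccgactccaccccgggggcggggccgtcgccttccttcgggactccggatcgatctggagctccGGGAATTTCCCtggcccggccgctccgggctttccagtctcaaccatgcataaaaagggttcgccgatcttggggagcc
IL6 (chr7:22727030-22727199, + strand): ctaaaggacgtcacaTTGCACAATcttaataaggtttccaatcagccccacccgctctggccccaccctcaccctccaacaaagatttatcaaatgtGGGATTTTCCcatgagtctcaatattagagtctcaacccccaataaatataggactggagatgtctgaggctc
CCL20 (chr2:227813672-227813841, + strand): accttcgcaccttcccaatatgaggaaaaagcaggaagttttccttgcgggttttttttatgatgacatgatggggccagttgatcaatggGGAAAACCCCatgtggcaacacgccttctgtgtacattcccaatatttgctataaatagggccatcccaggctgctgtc
CXCL1 was identical to CXCL2 in 82.8% of the aligned positions and to CXCL3 in 82.8%, and CXCL2 to CXCL3 in 80.3%, against 48.9% between CXCL2 and IL6. All 3 CXC genes carried the same run of 11 capitals, which reads as a kappa B match on either strand with an overlap of all but 1 base at each end, and it began 79 bases before the start of CXCL1 and CXCL3 and 78 before that of CXCL2. The kappa B match of CCL20 lay on the opposite strand, from -79 to -70. Promoters were found for 7 of the 10 genes. Of these, 5 held a kappa B match within 250 bases of the start, and 9.96% of all 35116 promoters did. IL1A, which has 2 listed starts, and IL1B held none. IL1A held matches to the AP-1 pattern TGANTCA, 105 and 55 bases before the more downstream start, and 6.57% of all promoters held this pattern. IL1B held a C/EBP match from -215 to -207, a pattern in 2.39% of promoters, and a match to the STAT pattern TTCNNNGAA from -180 to -172, a pattern in 6.57%. All patterns were searched on both strands, and a match in these letters is not a measured binding site.

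In a channel, 86.9% to 93.8% of gene spots exceeded background clearly, and no spot was saturated. The ratio drifted over each array: over 10 bins of its 532 rows, the bin with the highest median stood at 0.235 to 0.321 on the log2 scale and the lowest at -0.2 to -0.254. IL6, IL1A, IL1B, IL18 and CCL2 were printed as 10 spots each across the rows, while the other members rested on 1 spot per probe, so their values are also given with the drift over rows and columns removed, an alternative chosen after seeing the data. On the GALNT3 KO arrays the GALNT3 probe went undetected in Ctrl RNA (log2 levels 6.19 and 6.3) as well as in KO RNA (6.32 and 6.54). A loss of GALNT3 in these clones therefore cannot be read from the probe, although the paper describes strong GALNT3 expression in A2780s. On the T6-labelled arrays the probe stood at log2 ratios of 4.80 and 5.08, which goes against that label. The T6-labelled group is thus named by its label throughout. GALNT6 stood at -0.47 and -0.38 on the GALNT3 KO arrays and at -0.66 and -0.69 on the others. Of 12 leukocyte markers 11 or 12 were above background in the KO channel of each array, and their summed KO signal was 12960 to 13150 on the GALNT3 KO arrays and 13630 to 14140 on the T6-labelled arrays, with LYZ dim in every Ctrl channel and 4 of the 11 tested called higher than Ctrl and 1 lower on the latter. The 10 markers of ovarian carcinoma and epithelium summed to 10120 to 11750 in the KO channel of the GALNT3 KO arrays. In that of the T6-labelled arrays they summed to 892000 to 951200. Their Ctrl sums also differed, with 8517 to 9396 on the GALNT3 KO arrays and 34820 to 47060 on the T6-labelled arrays. On the latter 8 of the 10 were called higher than Ctrl, led by KRT18 (log2 5.68). The 5 endothelial markers summed to 3119 to 3672 in the KO channel of the GALNT3 KO arrays and to 4116 to 4539 on the T6-labelled arrays, with Ctrl sums of 2025 to 2710, and 3 of the 4 tested were called higher than Ctrl on the latter, while PECAM1 was dim in both channels of every array. The 7 fibroblast markers summed to 47750 to 53950 and to 49210 and 76370, with Ctrl sums of 50120 to 52220, and 3 were called higher and 3 lower on the T6-labelled arrays. Of all genes tested, 24.8% were called higher than Ctrl and 23.1% lower on the T6-labelled arrays. The part of the marker differences in the cytokine values was not tested.

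On the T6-labelled arrays, 9 of the 10 genes were called higher than Ctrl, from 25.1-fold for IL18 and 5.32-fold for IL6 down to 1.29-fold for CCL20, and CXCL1 was not called. Of the 9, IL1A entered the test only through its detection on these arrays. Called means that limma's moderated test gave a p of at most 0.05 after Benjamini-Hochberg adjustment over 27336 genes. Of all genes tested, 24.8% were called higher in this comparison, 23.1% lower and 47.8% in either direction. The median log2 ratio of the 10 genes was 1.37, against 0.03 over all genes. With a change of at least 1.5-fold required as well, 7 of the 10 remained, against 14.2% of all genes. The study's thresholds, an unadjusted p of at most 0.05 with at least 1.5-fold, applied to limma's p, also took 7 of 10, against 14.6% of all genes. A t-test of the same values against 0 took 2 of 10 at an unadjusted p of at most 0.05, against 5712 of all 27336 genes. The paper names Student's t-test for Western blots and functional assays, and no test for the arrays. The version run here on the arrays is called the methods' t-test.

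In GALNT3 KO clones LIF was the only one of the 10 genes called, 1.77-fold higher than Ctrl, against 4.67% of all genes called higher, 6.34% lower and 11.0% either way. The other 9 had log2 ratios from 0.00 for IL18 to 0.365 for CXCL2, with 95% intervals that reached at most 1.01. The median of the 10 was 0.14, against 0.02 over all genes.

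Set against each other, the groups differed in 5 of the 10 genes, IL18, IL6, CXCL2, CCL2 and IL1B, all higher on the T6-labelled arrays, against 11.8% of all genes called higher, 11.8% lower and 23.7% either way. For 9 genes neither T6-labelled array fell below a GALNT3 KO array, a pattern of 30.0% of all genes, and for CXCL1 the order was the opposite one, a pattern of 31.0%. The median difference was 1.00 over the 10 genes and 0.00 over all genes.

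**Figure D1:**
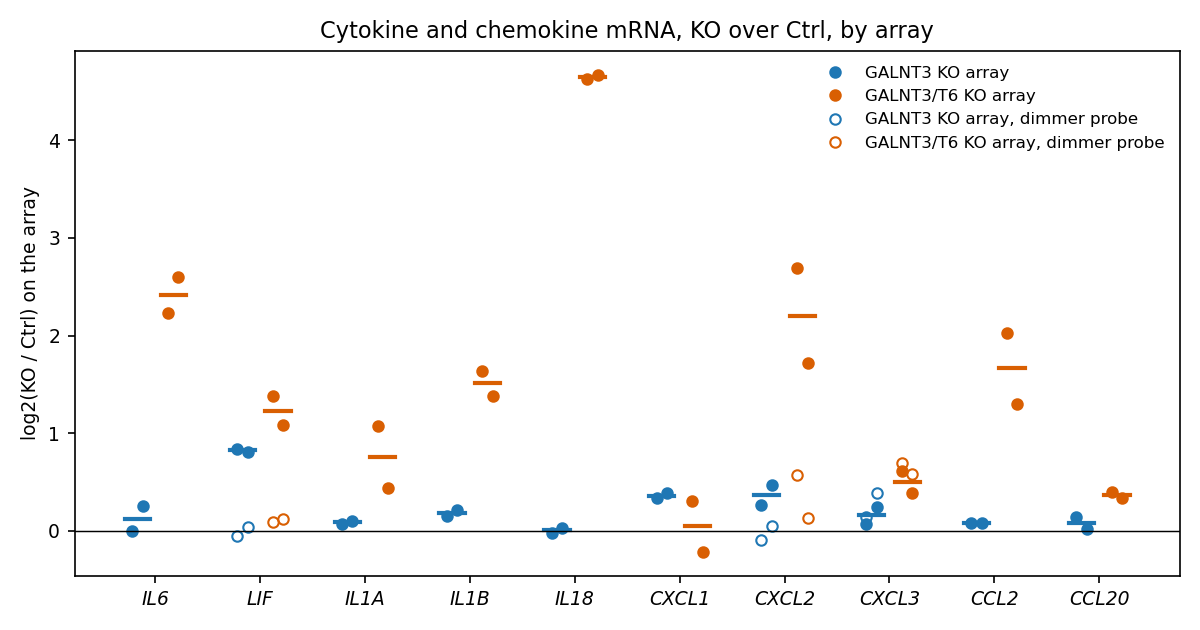
Log2 ratio of KO over Ctrl on each of the 4 arrays for the 10 genes, with 2 GALNT3 KO arrays in blue, 2 T6-labelled arrays in orange and a bar at each group mean; open circles are the dimmer probe of LIF, CXCL2 and CXCL3. IL18 stood above 4.6 on both T6-labelled arrays and at 0.03 or below on the GALNT3 KO arrays, while the 4 values of CXCL1 stayed between -0.22 and 0.39.

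IL6, the inflammatory cytokine that acts through the IL-6 receptor and gp130, was measured by 1 probe at 22771207 to 22771266 on chromosome 7 of hg19. The 2 GALNT3 KO arrays gave log2 ratios of -0.01 and 0.26, and the T6-labelled arrays 2.23 and 2.59. The groups did not overlap. Neither did their spots, which repeat the RNA of an array: the highest of the GALNT3 KO spots stood at 0.59 and the lowest of the others at 1.67. IL6 was 5.32-fold higher than Ctrl on the T6-labelled arrays (log2 2.41, standard error 0.13, limma adjusted p = 0.000368). In GALNT3 KO the ratio was 0.13 (95% interval -0.22 to 0.47, limma adjusted p = 0.514). The difference between the groups was 2.29 (standard error 0.18, limma adjusted p = 0.00218). Without GALNT3 KO replicate 1 the difference was 2.15, in a fit that cannot decide the call with 1 array left in the group. That array was the dimmest for IL6, with a Ctrl level of 8.94 on the log2 scale against 10.02 to 10.29 on the other 3.

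LIF, the gp130 cytokine that signals through LIFR, was the member called in both groups. Its brighter probe, at 30636713 to 30636772 on chromosome 22, read 0.84 and 0.80 on the GALNT3 KO arrays and 1.38 and 1.08 on the T6-labelled arrays. It was 1.77-fold higher than Ctrl in GALNT3 KO (log2 0.82, standard error 0.10, limma adjusted p = 0.026) and 2.35-fold higher on the other arrays (log2 1.23, standard error 0.10, limma adjusted p = 0.0012). The difference of 0.41 was not called (95% interval 0.02 to 0.79, limma adjusted p = 0.125), and it was 0.55 without GALNT3/T6 KO replicate 2. The GALNT3 KO call did not hold under several settings. It was lost with the drift over the array removed (0.61, limma adjusted p = 0.0766). Without GALNT3 KO replicate 1 or 2 the ratio was 0.80 or 0.84, and a fit with 1 array left in the group cannot decide the call. The dimmer LIF probe lies 2948 bases farther from the 3′ end of the gene, and it read -0.05, 0.04, 0.09 and 0.12 on the 4 arrays in the same order. The 2 probes of LIF thus disagreed on every array. With the dimmer probe LIF was not called on the T6-labelled arrays either (0.11, limma adjusted p = 0.317). The probes sat in rows 55 and 459, and with the drift removed the dimmer one gave 0.21 in GALNT3 KO (limma adjusted p = 0.177) and 0.29 on the T6-labelled arrays (limma adjusted p = 0.0389).

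IL18, the caspase-1 substrate known for inducing interferon gamma, differed most between the groups among the 10 genes. Its probe, at 112020811 to 112020870 on chromosome 11, read -0.02 and 0.03 on the GALNT3 KO arrays and 4.63 and 4.67 on the T6-labelled arrays. The spots kept from the latter stood at 3.93 or higher, and none kept from the former exceeded 0.28. IL18 was 25.1-fold higher than Ctrl on the T6-labelled arrays (log2 4.65, standard error 0.08, limma adjusted p = 9.31e-05). In GALNT3 KO it stood at 0.00 (95% interval -0.20 to 0.21). The groups differed by 4.65 (standard error 0.11, limma adjusted p = 0.000422), and the difference was called under all 20 alternatives run.

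IL1B, the secreted form of IL-1 that needs caspase-1, was measured at 113587429 to 113587488 on chromosome 2. It read 0.15 and 0.22 on the GALNT3 KO arrays and 1.64 and 1.38 on the T6-labelled arrays, with no overlap. It was 2.85-fold higher than Ctrl on the latter (log2 1.51, standard error 0.10, limma adjusted p = 0.000608) and differed between the groups by 1.33 (standard error 0.14, limma adjusted p = 0.00449). Without GALNT3 KO replicate 1 or 2 the difference stayed at 1.29 or 1.36, in fits that cannot decide the call with 1 array left in the group.

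IL1A, the form of IL-1 that is active as a precursor, was the dimmest case. On GALNT3 KO replicate 1 its probe, at 113532362 to 113532421 on chromosome 2, was undetected in both channels, with 1 of 10 spots well above background in each, and on replicate 2 it was detected in the KO channel only, with 5 of 10 spots. It read 0.07 and 0.11 there, and 1.07 and 0.44 on the T6-labelled arrays, where all 10 KO spots were above background. IL1A was 1.69-fold higher than Ctrl on these arrays (log2 0.76, standard error 0.17, limma adjusted p = 0.0204). With the extraction software's own ratio IL1A stood at 1.55 (limma adjusted p = 0.0128), so its size depended on the processing. It was tested only because it was detected on both T6-labelled arrays, since it did not pass on the GALNT3 KO arrays. The call was lost when the spread came from the 2 T6-labelled arrays alone, which is the same fit as leaving out a GALNT3 KO array. The difference of 0.67 between the groups was not called (limma adjusted p = 0.119), and it was 0.985 without GALNT3/T6 KO replicate 2.

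**Figure D2:**
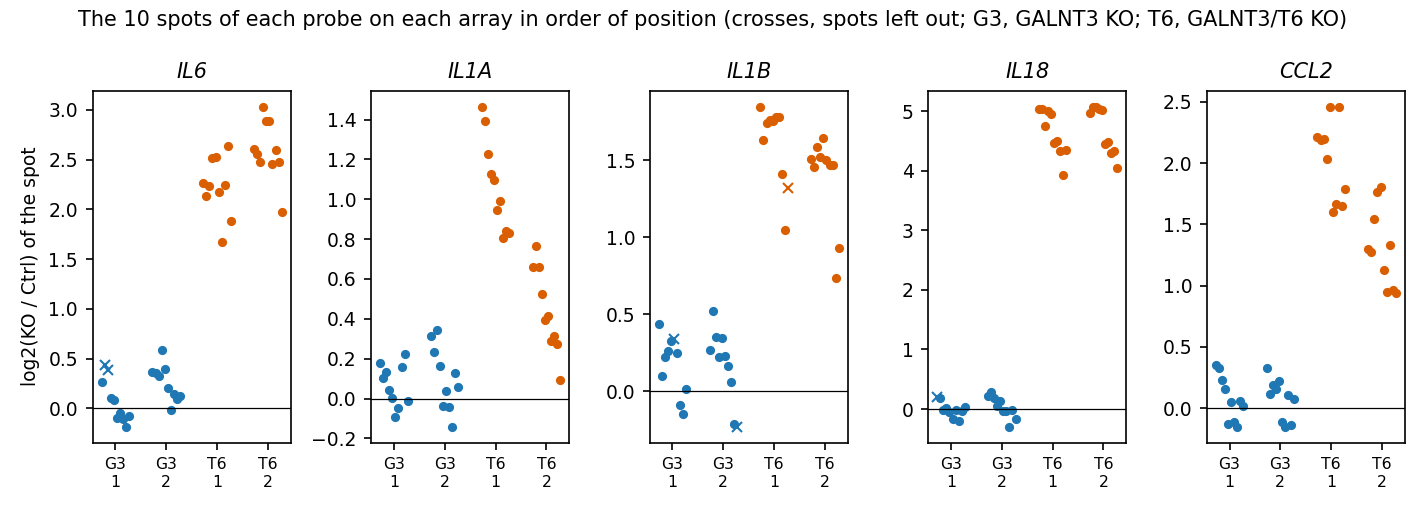
Log2 ratio of each of the 10 spots of the IL6, IL1A, IL1B, IL18 and CCL2 probes on the 4 arrays, in order of their position from the first row to the last, with GALNT3 KO (G3) in blue and GALNT3/T6 KO (T6) in orange, a scale for each gene, and spots marked as outliers and left out as crosses. The kept spots of IL6, IL18, IL1B and CCL2 do not overlap between the groups, those of IL1A do, and the later spots of a probe tend to be lower. Spots of a probe on an array repeat the same RNA, and their overlap was not counted over all probes printed as 10 spots.

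Among the CXC chemokines CXCL2 was called higher on the T6-labelled arrays and CXCL1 was not. The brighter CXCL2 probe, at 74962985 to 74963044 on chromosome 4, read 0.26 and 0.47 on the GALNT3 KO arrays and 2.69 and 1.72 on the T6-labelled arrays. CXCL2 was 4.61-fold higher than Ctrl on the latter (log2 2.20, standard error 0.24, limma adjusted p = 0.00268). The groups differed by 1.84 (95% interval 0.93 to 2.75, limma adjusted p = 0.0222). Without GALNT3 KO replicate 1 or 2 the difference was 1.74 or 1.94, in fits that cannot decide the call with 1 array left in the group. The dimmer CXCL2 probe, which also lists a CXCL3 transcript, read -0.09, 0.05, 0.58 and 0.13, so the 2 probes disagreed in size. With the dimmer probe CXCL2 was not called on the T6-labelled arrays (0.35, limma adjusted p = 0.0858). With the drift over the array removed the brighter probe stood at 1.92 and was called (limma adjusted p = 0.00884). The dimmer probe then stood at 0.49 and was still not called (limma adjusted p = 0.0595).

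CXCL1 was measured by 1 probe, at 74736850 to 74736909 on chromosome 4. It read 0.34 and 0.39 on the GALNT3 KO arrays and 0.30 and -0.22 on the T6-labelled arrays. Its ratio to Ctrl was 0.36 in GALNT3 KO (95% interval -0.02 to 0.74, limma adjusted p = 0.151) and 0.04 on the other arrays (95% interval -0.33 to 0.42, limma adjusted p = 0.812). The latter interval lies below a 1.5-fold rise. With the drift removed it stood at 0.52 and 0.20 in the 2 groups, neither called (limma adjusted p = 0.131 and 0.322). The extraction software's own ratio gave 0.83 and 0.16, also not called (limma adjusted p = 0.131 and 0.623). Without either array labelled GALNT3/T6 KO, CXCL1 was called in GALNT3 KO at the same ratio (limma adjusted p = 0.0195), and so was CXCL2 (0.365, limma adjusted p = 0.0234). Between the groups CXCL1 stood at -0.32 (limma adjusted p = 0.373), and at -0.58 without GALNT3/T6 KO replicate 1.

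CXCL3 had 2 probes that gave ratios of similar size. The brighter one, spanning 74902991 to 74903865 on chromosome 4, read 0.07 and 0.24 on the GALNT3 KO arrays and 0.61 and 0.38 on the T6-labelled arrays. The dimmer one, undetected in both channels on GALNT3 KO replicate 1, read 0.14, 0.38, 0.69 and 0.58. CXCL3 was 1.41-fold higher than Ctrl on the T6-labelled arrays (log2 0.50, standard error 0.10, limma adjusted p = 0.0167), and at 0.32 still called with the drift removed (limma adjusted p = 0.0403). The call was lost with the extraction software's own ratio (0.25, limma adjusted p = 0.159). It was also lost with the spread from the 2 T6-labelled arrays alone (0.50, limma adjusted p = 0.0578). Without GALNT3/T6 KO replicate 1 the ratio was 0.38. The groups differed by 0.34, which was not called (limma adjusted p = 0.18).

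Of the CC chemokines, CCL2 rose clearly on the T6-labelled arrays. Its probe, at 32584050 to 32584109 on chromosome 17, read 0.08 and 0.08 on the GALNT3 KO arrays and 2.03 and 1.30 on the T6-labelled arrays, and the lowest spot of the latter stood at 0.94 against 0.35 for the highest of the former. CCL2 was 3.17-fold higher than Ctrl (log2 1.66, standard error 0.19, limma adjusted p = 0.00274). The difference between the groups was 1.59 (95% interval 0.90 to 2.27, limma adjusted p = 0.0155). It stayed at 1.59 without either GALNT3 KO array, in fits that cannot decide the call with 1 array left in the group.

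CCL20, with a probe spanning 228681100 to 228681836 on chromosome 2, read 0.14 and 0.01 on the GALNT3 KO arrays and 0.40 and 0.33 on the T6-labelled arrays. It was called there at 1.29-fold (log2 0.37, standard error 0.08, limma adjusted p = 0.0227). Its single spot lies in row 25, where the ratios of all genes run high, and with the drift removed it read 0.176 and 0.003, a mean of 0.09 that was not called (limma adjusted p = 0.426). Without either GALNT3 KO array it stood at 0.37 and was not called (limma adjusted p = 0.0681), nor without GALNT3/T6 KO replicate 1, at 0.335 (limma adjusted p = 0.0773).

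**Figure D3:**
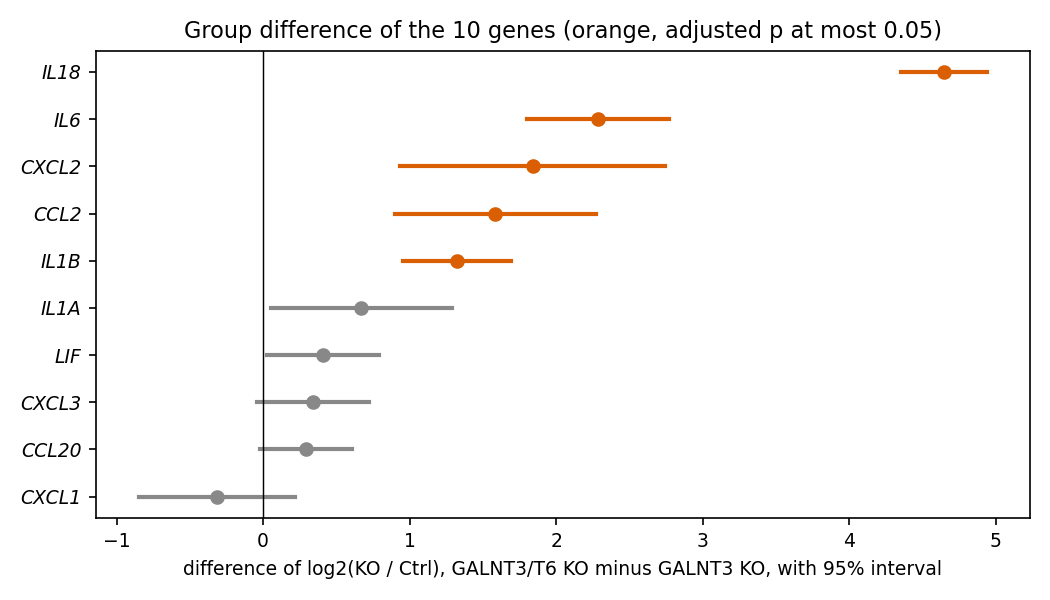
Difference of the log2 ratio, T6-labelled arrays minus GALNT3 KO arrays (2 against 2), as a point with its 95% interval from limma for each gene, called genes in orange. The intervals of IL18, IL6, CXCL2, CCL2 and IL1B start at 0.90 or higher, and that of CXCL1 runs from -0.85 to 0.22.

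The levels of the Ctrl and KO channels show which side of a ratio moved. For CXCL2, CCL2 and IL1B the mean Ctrl level differed by 0.00, -0.10 and 0.30 between the groups on the log2 scale, while the KO channel was higher by 1.84, 1.48 and 1.63 on the T6-labelled arrays. For IL6 the Ctrl channel was higher by 0.51 on the T6-labelled arrays, which was not called (standard error 0.46, limma adjusted p = 0.841), and the KO channel by 2.80. For IL18 both channels were higher. The Ctrl channel stood at 7.39 and 7.65 on the GALNT3 KO arrays and at 9.98 and 9.71 on the T6-labelled arrays, a difference of 2.33 (limma adjusted p = 0.0291), and the KO channel at 7.36, 7.68, 14.61 and 14.38. On these last arrays the Ctrl signal of IL18 was 4.03% and 3.92% of the KO signal. In the Ctrl channel 0.318% of all genes, 87 in number, were called between the groups, all of them higher on the T6-labelled arrays, and 86 of the 87 were also called higher in KO than in Ctrl there. Their Ctrl signal had a median of 5.77% of their KO signal. From the KO channel alone the same number of members, 5, was called between the groups, against 15.3% of all genes, and IL18 then differed 126-fold and IL6 6.94-fold, where the median gene stood at -0.123 on the log2 scale.

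**Figure D4:**
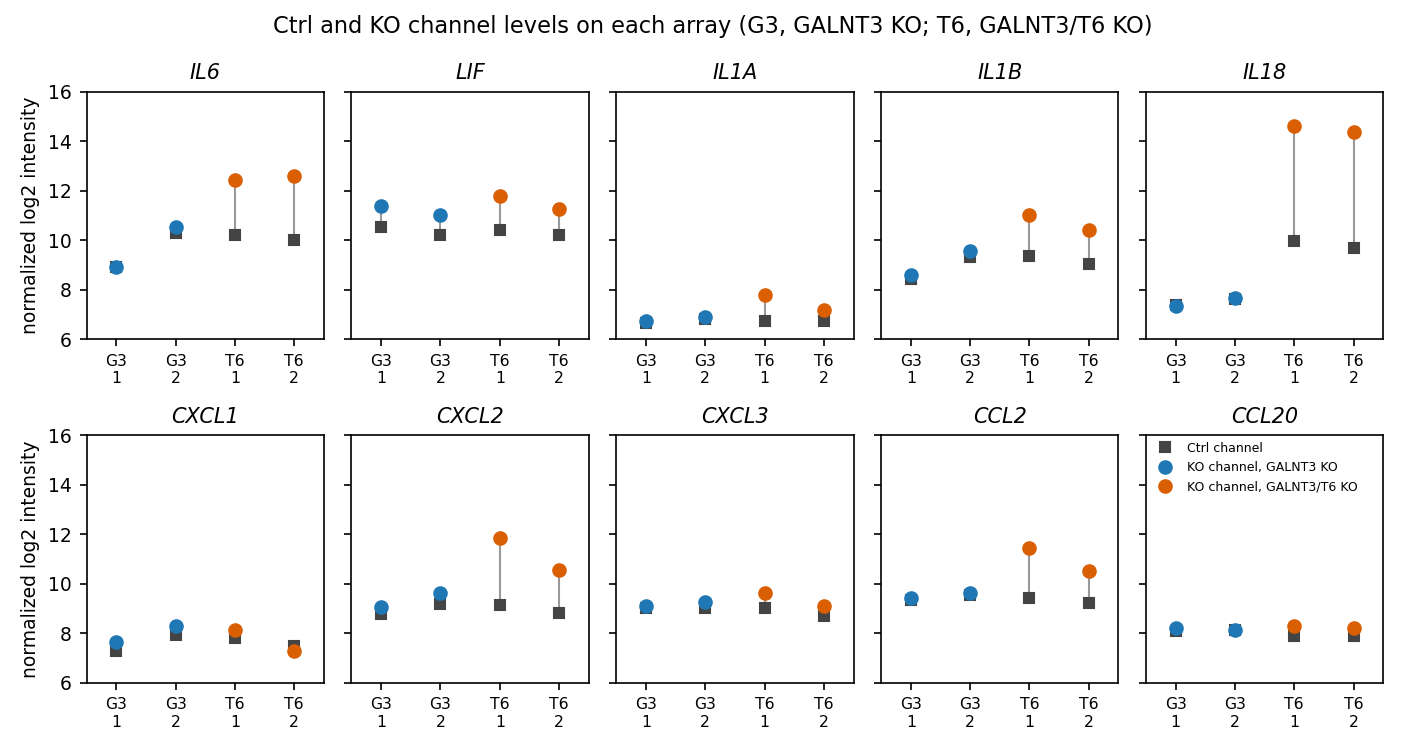
Normalized log2 intensity of the Ctrl channel (squares) and of the KO channel (circles, GALNT3 KO in blue and GALNT3/T6 KO in orange) on each array, GALNT3 KO replicates 1 and 2 (G3) and GALNT3/T6 KO replicates 1 and 2 (T6), joined by a line per array. The IL18 Ctrl channel sits at 9.71 and 9.98 on the T6 arrays against 7.39 and 7.65 on the G3 arrays, while the LIF Ctrl channel stays between 10.20 and 10.54.

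The other genes of these pathways are given by list, to be read against the shares of all genes called higher and lower, 24.8% and 23.1% on the T6-labelled arrays, 4.67% and 6.34% in GALNT3 KO, and 11.8% and 11.8% between the groups. Of 16 receptor genes, 9 were higher and 1 lower than Ctrl on the T6-labelled arrays, with a median log2 ratio of 0.53 against 0.03 over all genes. IL1RAP, the accessory chain of the IL-1 receptor, rose to 4.09 and 4.80 there (mean 4.44, limma adjusted p = 0.000194), and on the GALNT3 KO arrays neither channel measured it above background. IL1RAP thus entered the test only through its detection on the T6-labelled arrays. LIFR, the LIF receptor, rose to 4.06 and 3.98 (mean 4.02, limma adjusted p = 9.31e-05). SIGIRR, an inhibitory member of the IL-1 receptor family, fell to -2.01 and -2.34 (mean -2.17, limma adjusted p = 0.00053). IL6ST, which encodes gp130, stood at 0.27, 0.14, 3.47 and 3.22 on the 4 arrays and was called higher on the last 2 (mean 3.34, limma adjusted p = 0.00011), as was IL6R (mean 1.87, limma adjusted p = 0.000789). IL6ST and IL6R were named after their values were seen. In GALNT3 KO, IL1R1 was higher (0.48, limma adjusted p = 0.0431) and IL18R1, a chain of the IL-18 receptor, was lower (-1.39, limma adjusted p = 0.0479). Between the groups 7 of the 16 were higher and 1 lower on the T6-labelled arrays, LIFR by 3.79 (limma adjusted p = 0.000422).

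Among 12 genes of cytokine maturation and mRNA decay, 6 were higher and 3 lower than Ctrl on the T6-labelled arrays, with a median of 0.53. CASP1, the protease that matures IL-1 beta and IL-18, rose to 5.15 and 5.06 (34.4-fold, limma adjusted p = 9.31e-05), and stood at 0.47 and 0.26 in GALNT3 KO, which was not called. PYCARD, the adaptor that recruits caspase-1, rose by 2.86 (limma adjusted p = 0.000272). HNRNPD and ELAVL1, which bind AU-rich elements of cytokine mRNAs, fell by 1.75 and 1.45 on the log2 scale (limma adjusted p = 0.0116 and 0.00324). Between the groups 6 of the 12 were higher, CASP1 by 4.74 (limma adjusted p = 0.000422). In GALNT3 KO 1 gene was called, ZFP36, another AU-rich element binder (0.65, limma adjusted p = 0.0413).

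Of 11 C/EBP and AP-1 factors, 6 were higher and 3 lower on the T6-labelled arrays, with a median of 1.12. JUN rose to 4.32 and 4.18 (19.0-fold, limma adjusted p = 9.31e-05), and its Ctrl channel was above background on these arrays only. It entered the test only through its detection there. CEBPB stood at -0.45 and -0.32 in GALNT3 KO and rose by 3.38 (10.4-fold, limma adjusted p = 0.000109). CEBPA and CEBPG fell by 0.68 and 0.62 (limma adjusted p = 0.00865 and 0.008), and with the software's own ratio CEBPA turned to 0.65, not called. Between the groups 6 of the 11 were higher and 3 lower. CEBPB was higher by 3.77 (limma adjusted p = 0.000452), and FOS was lower by 1.18 on the log2 scale on the T6-labelled arrays (limma adjusted p = 0.0106). In GALNT3 KO only JUND was called (0.79, limma adjusted p = 0.0382).

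Of 13 NF-kappa B subunits and inhibitors, 8 were higher and 2 lower on the T6-labelled arrays, with a median of 0.51. TNFAIP3, the A20 feedback inhibitor, rose to 1.82 and 2.24 (limma adjusted p = 0.00051), and BCL3, a nuclear I kappa B protein, to 1.31 and 1.68 (limma adjusted p = 0.000937). REL and NFKBIB fell by 1.44 and 1.15 (limma adjusted p = 0.000895 and 0.00145). In GALNT3 KO 2 genes of I kappa B proteins were lower, NFKBIE (-0.88, limma adjusted p = 0.0369) and NFKBIZ (-0.57, limma adjusted p = 0.0488), and no gene of the list was called higher. Between the groups 6 of the 13 were higher and 2 lower on the T6-labelled arrays. Of 19 adaptors and kinases between the receptors and NF-kappa B, 7 were higher and 3 lower on the T6-labelled arrays, against 24.8% and 23.1% of all genes, with a median of 0.10. TLR4 and IRAK3 led with 1.58 and 1.41 (limma adjusted p = 0.000529 and 0.00557), and TAB1 and TRAF2 fell by 1.04 and 0.93 (limma adjusted p = 0.00115 and 0.00222). In GALNT3 KO 4 of these 19 were lower, against 6.34% of all genes, with RIPK1 at -0.75 and TRAF2 at -0.57 (limma adjusted p = 0.0382 and 0.0389). Between the groups 7 of the 19 were higher and 1, TAB1, lower.

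Of 12 genes of JAK and STAT3 signalling, 5 were higher and 6 lower on the T6-labelled arrays, with a median of 0.10. SOCS3, a STAT3-induced inhibitor of gp130 signalling, stood at -0.14 and 0.11 in GALNT3 KO and rose to 1.74 and 1.38 (limma adjusted p = 0.00111). BCL6, a transcriptional repressor, was lower in GALNT3 KO (-1.28, limma adjusted p = 0.0179) and higher on the T6-labelled arrays (1.46, limma adjusted p = 0.00117), a difference of 2.74 (limma adjusted p = 0.00117). PTPN11 and PIAS3 fell by 1.05 and 1.04 (limma adjusted p = 0.0115 and 0.00166).

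Of 12 further IL-6 and IL-1 family genes, 3 were higher and 1 lower than Ctrl on the T6-labelled arrays, against 24.8% and 23.1% of all genes, at a median of 0.13. IL1RN, the IL-1 receptor antagonist, and CLCF1, a gp130 cytokine, stood at 0.87 and 0.79 (limma adjusted p = 0.00328 and 0.00304), and IL11, another gp130 cytokine, fell by 1.07 (limma adjusted p = 0.00177). IL18BP, the IL-18 decoy, was the gene of this list called in GALNT3 KO (0.42, limma adjusted p = 0.0476). Of 28 further chemokines tested, 7 were higher and 4 lower on the T6-labelled arrays, also against 24.8% and 23.1% of all genes, with a median of 0.12, and CXCL8, a close relative of CXCL1 to CXCL3, was too dim to be tested. CCL28 and CXCL14 rose by 2.58 and 2.31 (limma adjusted p = 0.000725 and 0.00712), and CCL28 entered the test only through its detection on these arrays. CXCL10 and CXCL11, chemokines induced by interferon, fell by 1.42 and 2.66 (limma adjusted p = 0.00189 and 0.000494). CXCL10 was called in both groups, in opposite directions: it read 1.08 and 1.47 in GALNT3 KO (limma adjusted p = 0.022) and -1.27 and -1.58 on the T6-labelled arrays, a difference of -2.69 (limma adjusted p = 0.00167). CCL13 was also higher in GALNT3 KO (0.53, limma adjusted p = 0.0356). Between the groups 4 chemokines were higher and 3 lower on the T6-labelled arrays, CCL26 by 1.38 (limma adjusted p = 0.046) and CCL27 at -1.04 (limma adjusted p = 0.0146) among them.

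**Figure D5:**
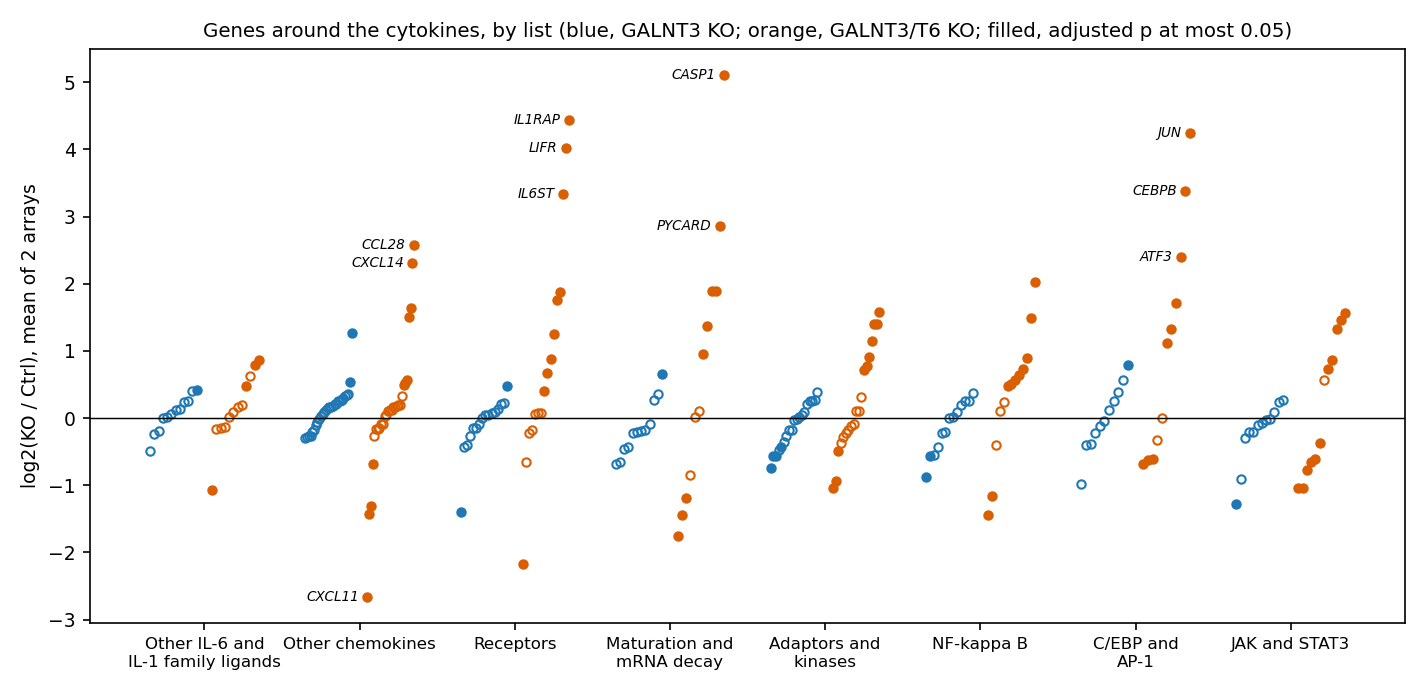
Mean log2 ratio of KO over Ctrl for the genes of 8 lists around the cytokines, each gene a circle in rank order within its list and group, GALNT3 KO in blue and GALNT3/T6 KO in orange, filled where called. CASP1, IL1RAP, JUN and LIFR stand above 4 in orange, and CXCL11 lies at -2.66.

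The genes nearest to a member over the 4 log2 ratios were found by Euclidean distance, which describes these 4 arrays. TCAM1P, PARP12 and VAV1 lay 0.13, 0.13 and 0.14 from IL6, and SAMD9L and IAH1 lay 0.31 and 0.36 from IL18, after 1 unnamed transcript at 0.30. Near CXCL2 lay CRIPT at 0.18 and RAB9BP1 at 0.31. Near CCL2 lay GOLT1B, ARMC10 and BCL10-AS1 at 0.19 to 0.21. POLR2J3 and LINC01186 lay 0.13 and 0.14 from IL1B, PACRGL and ST3GAL5 0.09 and 0.13 from IL1A, STX18-AS1 and SLC11A2 0.04 and 0.06 from CCL20, and RPL15 and NEK6 0.26 and 0.29 from LIF. The 3 nearest to CXCL3 had no gene symbol. No other member was among the 3 nearest genes of a member.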

How the data were processed

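The deposited scanner files hold, per spot, the mean intensity of the Cy3 and Cy5 channels and the median local background, extracted by the authors with Agilent Feature Extraction (10.7.3.1 in the file headers, 8.5.1.1 in the submitters' processing notes) on hg19 annotation, together with a log10 ratio made by the software. A table of the same log10 ratios, rounded, was also deposited. All 4 arrays were scanned as 1 slide.

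From the intensities, background was corrected with normexp (offset 50), the dyes of an array were balanced by loess with control spots at weight 0, and channels were scaled by Aquantile, in limma 3.58.1 under R 4.3.3. Spots marked as outliers were left out and spots of a probe averaged. Probes were kept that had at least 50% of spots well above background in either channel on both arrays of a group. The channel could differ between the arrays. A gene dim on the GALNT3 KO arrays could enter through the T6-labelled arrays alone, and the counts by list include such genes. Where a gene had several such probes the brightest was used. This kept 27336 genes. Each list symbol was matched through RefSeq accessions where possible (30364 of 43376 gene spots), otherwise by the name in the files.

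limma fitted a mean for each group on all 4 arrays (2 residual and 2.66 prior degrees of freedom). Ctrl was the other channel of every array, and the tests against it hold no separate Ctrl spread. Nothing says whether the arrays shared 1 Ctrl RNA, so p-values measure the spread between these arrays. The number of arrays limits the precision. The 10 genes and the lists were chosen with earlier results of these data known. Genes were named by rule: all 10, the 2 highest and 2 lowest called genes per list and comparison with the same sign on both arrays of each group, and, of the 3 nearest genes of each called member, those with a gene symbol. A list gene that this rule named is not reported here. Drift was removed with lowess (span 0.2) of the ratio over rows, then columns.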

Additional observations from a re-analysis of the deposited data

Results flagged for a closer look

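The log2 ratio to Ctrl differed between the groups, by limma's test of the difference, for 5 of the 10 genes. The difference, GALNT3/T6 KO minus GALNT3 KO, was 4.6486 for IL18, 2.2862 for IL6, 1.8397 for CXCL2, 1.5854 for CCL2 and 1.3252 for IL1B. Both T6-labelled arrays were above both GALNT3 KO arrays for each of the 5, an order that 30.0% of all genes showed. The calls rest on the same values, so this order adds nothing to them. For IL18 the Ctrl channel was also higher on the T6-labelled arrays, and for CXCL2 the dimmer probe gave 0.37, which was not called (limma adjusted p = 0.252).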

How the results depend on the processing

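Over 16 other settings and 5 more chosen after seeing the data (crossed pairing, KO channel alone, dimmer probe, and position correction with either probe), the GALNT3 KO count of 1 gene, LIF, was the least stable. It was 0 with the Agilent log ratio, the deposited table, the replicate block and the methods' t-test. It was also 0 with the dimmer probe (LIF at -0.002) and with position correction of either probe. The methods' t-test took 3 at the unadjusted threshold, against 4018 of all 27336 genes. After adjustment it called 0 of all genes against Ctrl in either group. The spread from the group's own arrays gave 3, where 16.9% of all genes were called higher. Leaving out 1 array gave 0 to 3, with 0 without either GALNT3 KO array. The T6-labelled count of 9 was 0 with the methods' t-test (2 unadjusted) and 6 to 9 with 1 array left out. The difference count of 5 was 1 with the methods' t-test and 1 to 7 with 1 array left out, 1 without GALNT3 KO replicate 1 and 2 without replicate 2. With 1 array left in a group the lone sample is assumed to vary like the other group, so such a count cannot decide a call. The cause was not tested.

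Deviations of same-numbered arrays from their group means correlated at r = -0.238 over 27298 genes. This cannot show whether a T6-labelled clone came from the GALNT3 KO clone of the same number, which the labels do not say. The replicate block gave 0, 8 and 5 genes, and the crossed pairing 1, 9 and 5. Other named genes reversed in 5 of 4308 values: CEBPA with the Agilent log ratio (0.649 against Ctrl and 0.767 between groups), ENST00000448435 with the Agilent log ratio and the deposited table (-0.013 in both), and RPL15 with the mean of all probes (-0.073). Over all genes, 42.4% of GALNT3 KO calls were higher, against 23.4% with median centring, 33.2% with the Agilent log ratio and 33.4% with position correction. Over all genes the GALNT3 KO calls numbered 1276 higher and 1732 lower, against 250 and 498 with position correction and 30 and 51 with the replicate block. Slide or scan as a block was not run, since all arrays share both. Signal over background limits IL1A most.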

Other observations

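Among 264 probes printed as 10 spots, the first 5 spots by row had a higher mean log2 ratio than the last 5 in 260, 262, 261 and 262 probes on the 4 arrays, with median gaps of 0.292, 0.365, 0.403 and 0.407.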
